A study of Homo sapiens with 8 samples.

Results

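Expression of 10 genes of the aryl hydrocarbon receptor (AHR) pathway and of the aldehyde dehydrogenase (ALDH) family was compared between groups of BEAS-2B cells. This is a human bronchial epithelial line that has been immortalised. The cells were untreated, under exposure to nickel, or grown on after that exposure. The genes were chosen by name among the 25411 listed per library, and all 10 were found. They comprised the receptor AHR, its repressors AHRR and TIPARP, the cytochrome P450 genes CYP1A1, CYP1A2 and CYP1B1, and the aldehyde dehydrogenases ALDH1A1, ALDH1A3, ALDH3A1 and ALDH3A2. RNA-Seq read counts and RPKM values (reads corrected for gene length and for the mapped reads per library) came from 8 libraries, 2 biological replicates in each of 4 groups. Cells without nickel (UT, untreated) served as control. The nickel-exposed group (Ni-E) was kept for 6 weeks in 100 µM NiCl2, a soluble nickel salt. Nickel-washed-out cells (Ni-W) went through that exposure and were then grown in nickel-free medium for more than 6 months from a colony founded by an individual cell, so they stand for a randomly selected clone and not for the whole exposed culture. The group HCl3 carried the treatment text of Ni-W, but its time without nickel and its relation to the Ni-W clone were not given. Experiment numbers in the labels (2 for Ni-E, 3 and 4 for HCl3) cannot be told apart from the groups.

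Total counts were between 26383920 and 45692298 reads per library, and the lowest level taken as seen, 3 reads, was 6.57e-06 to 1.14e-05% of them. The keratins KRT8 (192 to 310 RPKM) and KRT18 (144 to 245 RPKM) were abundant in all 8 libraries, whereas 9 of the 12 airway and epithelial markers listed in the files never exceeded 1 RPKM, among them CDH1 (0.01 to 0.11 RPKM) and KRT5 (0 to 0.03 RPKM). The basal-cell factor TP63 and the alveolar SFTPC had 0 RPKM throughout. The summed level of these 12 markers was 338 to 369 RPKM (UT), 372 to 435 (Ni-E), 466 to 495 (Ni-W) and 523 to 558 (HCl3). Most of this sum was KRT8 and KRT18, so it does not follow the 12 markers as a set. Of 8 markers of immune, endothelial and fibroblast cells, the leukocyte marker PTPRC and the endothelial PECAM1, VWF and CDH5 stayed at or below 0.10 RPKM. The other immune marker, CD68, was at 14.3 to 21.8 RPKM. Of the fibroblast markers, the collagen gene COL1A1 was at 178 to 454 RPKM, PDGFRB at 10.6 to 27.9 and COL1A2 at 0.03 to 2.05. The sum over those 8 markers, most of it COL1A1, was 378 to 434 RPKM (UT), 210 to 370 (Ni-E), 259 to 283 (Ni-W) and 477 to 501 (HCl3). The part of these markers in the results given here was not tested. In bulk RNA, fewer cells of a type and less RNA per cell cannot be told apart.

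AHR is a transcription factor that waits in the cytosol with HSP90 and PTGES3 until a ligand, such as a polycyclic aromatic hydrocarbon or a tryptophan metabolite, binds it. It then enters the nucleus, pairs with ARNT and binds DNA elements with the core GCGTG near its target genes, of which CYP1A1, CYP1A2, CYP1B1, AHRR and TIPARP are the classical examples. The CYP1 enzymes oxidise aromatic hydrocarbons, and AHRR and TIPARP dampen the receptor. Aldehyde dehydrogenases oxidise aldehydes to acids. ALDH1A1 and ALDH1A3 produce retinoic acid, ALDH3A1 is an AHR-inducible enzyme acting on aromatic and lipid aldehydes, and ALDH3A2 handles long-chain fatty aldehydes.

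The 250 bases upstream of the transcription start are shown for CYP1A1, the classical AHR target, and for ALDH1A3 and ALDH1A1, related enzymes of which the former was transcribed in these cells and the latter was not seen. The sequences are from RefSeq (GRCh38.p14), read 5′ to 3′ on the strand of the gene, and capitals mark GCGTG or its complement CACGC. The windows lie at chr15:74725529-74725778 (minus strand) for CYP1A1, chr15:100879581-100879830 (plus strand) for ALDH1A3 and chr9:72953054-72953303 (minus strand) for ALDH1A1.
CYP1A1: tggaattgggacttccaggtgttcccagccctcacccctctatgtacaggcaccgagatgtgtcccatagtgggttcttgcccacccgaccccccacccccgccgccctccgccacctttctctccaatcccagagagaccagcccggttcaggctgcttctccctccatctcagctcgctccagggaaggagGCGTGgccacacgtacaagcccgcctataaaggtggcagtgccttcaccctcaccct
ALDH1A3: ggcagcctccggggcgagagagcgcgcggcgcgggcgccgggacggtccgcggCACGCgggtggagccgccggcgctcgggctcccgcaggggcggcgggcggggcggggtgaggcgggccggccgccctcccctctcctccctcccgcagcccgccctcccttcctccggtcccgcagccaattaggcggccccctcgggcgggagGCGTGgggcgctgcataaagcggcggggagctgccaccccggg
ALDH1A1: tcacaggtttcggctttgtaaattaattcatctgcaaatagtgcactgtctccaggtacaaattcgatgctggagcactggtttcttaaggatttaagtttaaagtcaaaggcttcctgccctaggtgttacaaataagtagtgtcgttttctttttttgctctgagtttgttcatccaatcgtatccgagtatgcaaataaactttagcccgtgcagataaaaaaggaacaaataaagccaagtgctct
CYP1A1 held 1 match, which began 57 bases upstream of the start (position -57), and ALDH1A3 held 2, at positions -197 and -43. ALDH1A1 held 0. The upstream windows of AHR and CYP1A2 also held 0, and those of AHRR, TIPARP and ALDH3A2, which have 2 or 3 annotated starts, held between 0 and 2. Across 35116 promoter windows of the same length, 32.2% held the motif on either strand. G and C made up 82.4% of the ALDH1A3 window, 62.4% of that of CYP1A1 and 38.4% of that of ALDH1A1, against a median of 58.0% over all windows. ALDH1A3 had 38 CG dinucleotides and ALDH1A1 had 6, against a median of 11. RefSeq windows were found for 8 of the 10 genes. A match describes letters only, and the expression files, which use hg19, hold no measure of binding.

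TIPARP was the most abundant of the 10 genes, with a mean over the 8 libraries of 25.3 RPKM, followed by ALDH3A2 (20.1), AHR (7.93), CYP1B1 (4.43), AHRR (4.08), ALDH1A3 (1.64) and CYP1A1 (0.588). ALDH3A1 (0.154 RPKM) and CYP1A2 (0.0725 RPKM) were close to the limit of detection, with at most 21 and 19 reads in a library. ALDH1A1 had 0 reads in all 8 libraries, which allows up to 3 reads in each by counting error, and could not be tested. Thus 9 of the 10 genes were tested in each comparison, and 7 of them had a mean count of at least 50.

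**Figure D1:**
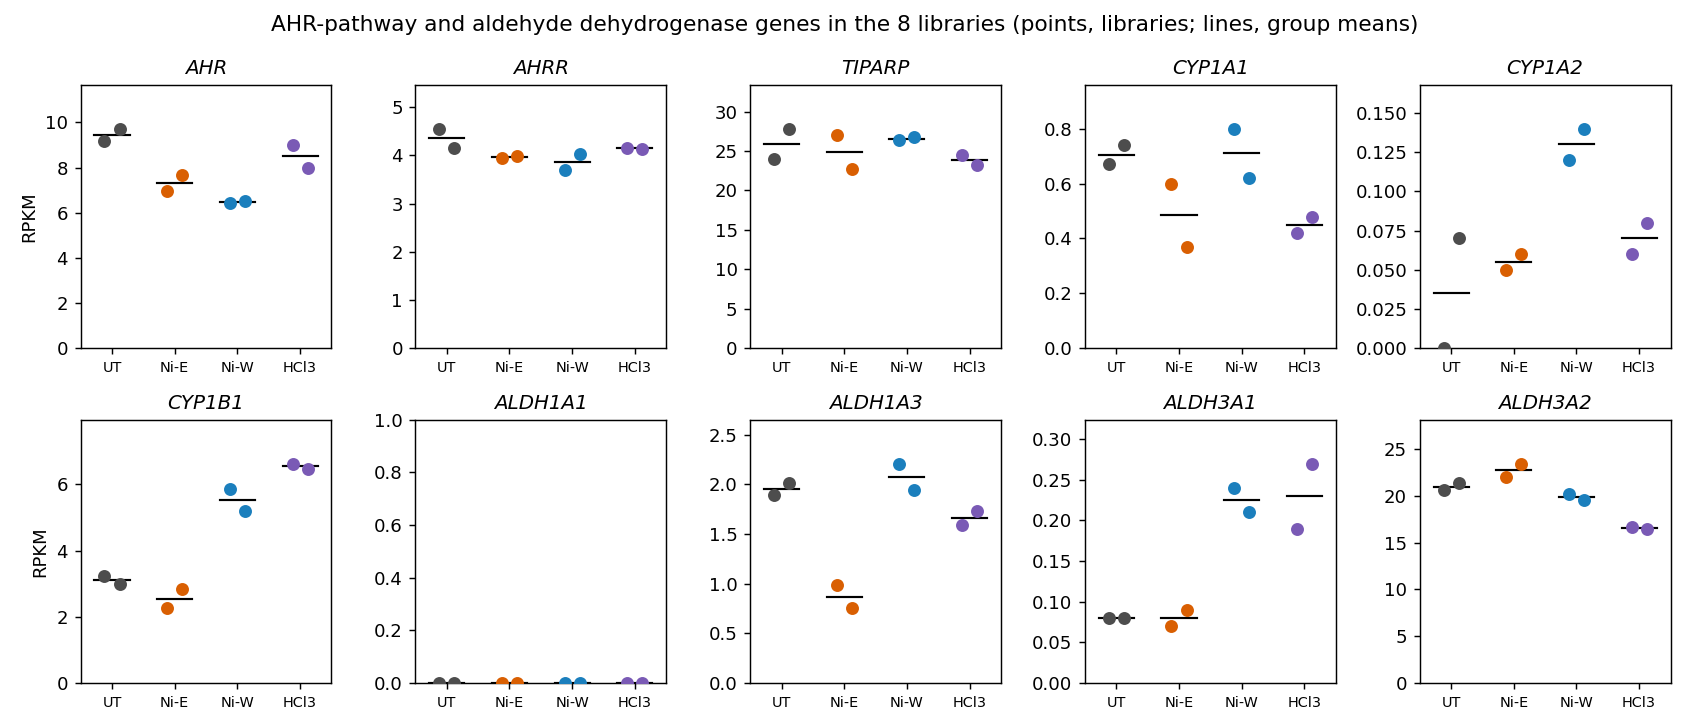
RPKM (vertical axes, linear from 0, each gene on its own scale) of the 10 genes in the 4 groups; each point is a library and each line is the mean of its group. CYP1B1 lies between 5.19 and 6.63 in Ni-W and HCl3 and at or below 3.23 in UT and Ni-E, ALDH1A3 is lowest in Ni-E (0.75 and 0.99), and ALDH1A1 is at 0 throughout.

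Genes were compared with DESeq2 and called where the adjusted P value was under 0.05 and the change at least 1.5-fold. With nickel present (Ni-E against UT), 1 of the 9 genes was called, ALDH1A3, which was lower, against 5.8% of all genes tested (3.75% higher and 2.05% lower). In Ni-W against UT, 1 of 9 was called, CYP1B1, which was higher, against 15.7% of all genes (10.9% higher and 4.83% lower). CYP1B1 was also the gene called in HCl3 against UT, 1 of 9, where 14.8% of all genes passed (11.1% higher and 3.74% lower). Between Ni-W and Ni-E, and again between HCl3 and Ni-E, the 2 genes called of 9 were CYP1B1 and ALDH1A3, against 20.5% and 17.1% of all genes. Between HCl3 and Ni-W, DESeq2 called 0 of 9 against 4.77% of all genes, with 4 of the 9 at an unadjusted P value under 0.05. There edgeR and limma also called 0, with 6 genes each at an unadjusted P value under 0.05. The 9 genes had medians of -0.19 (Ni-E), 0.00050 (Ni-W) and -0.17 (HCl3) for the log2 fold change against UT, beside medians of -0.0016, 0.010 and 0.011 over all genes tested. The comparisons against UT share the 2 UT libraries and are not independent of each other.

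**Figure D2:**
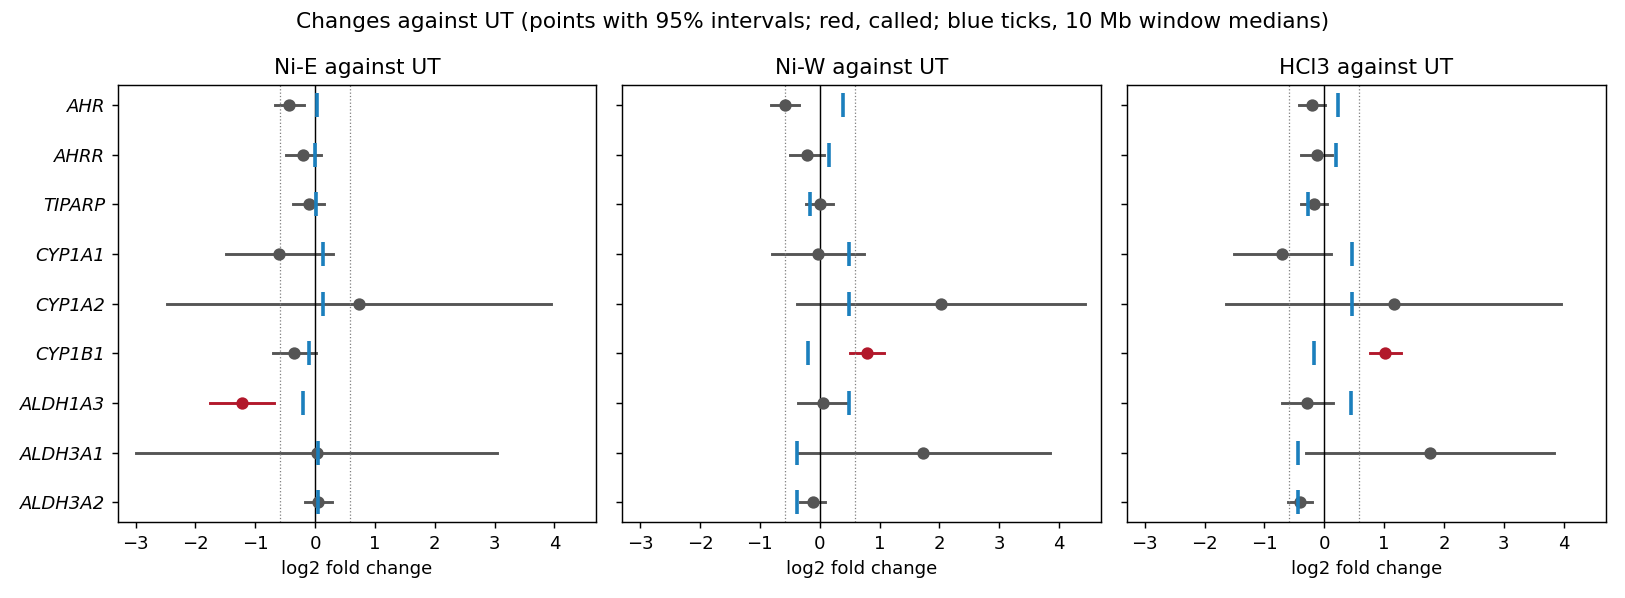
Log2 fold changes (horizontal axes) of the 9 tested genes in Ni-E, Ni-W and HCl3 against UT; points are DESeq2 estimates with 95% intervals, red marks called genes, dotted lines mark 1.5-fold, and blue ticks are the median log2 fold change of the other expressed genes within the same 10 Mb window. CYP1B1 stands at 0.79 in Ni-W and 1.02 in HCl3 and ALDH1A3 at -1.22 in Ni-E, while the intervals of CYP1A2 and ALDH3A1 span 0 in the 3 comparisons.

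AHR (chromosome 7, 17338276 to 17385775, plus strand, hg19) was lower in Ni-E and Ni-W than in UT, by less than the 1.5-fold threshold. Its level was 9.19 and 9.72 RPKM in UT, 6.95 and 7.66 in Ni-E, then 6.41 and 6.54 in Ni-W, with 8.99 and 8.0 in HCl3. The Ni-E and Ni-W libraries all lay below the 2 UT libraries, and so did those of HCl3, by a smaller margin. The log2 fold change against UT was -0.43 ± 0.13 (SE, n = 2 and 2, adjusted P = 0.00945) in Ni-E and -0.58 ± 0.12 (adjusted P = 8.84e-06) in Ni-W, the latter being 1.497-fold and thus just inside the threshold. AHR passed the threshold in Ni-W without UT replicate 1 (-0.62), without Ni-W replicate 2 (-0.60) and with GC and length trends removed (-0.74, adjusted P = 1.33e-12). In Ni-E the removal of these trends brought it to -0.24 (adjusted P = 0.180), and the adjusted P value was also above 0.05 in limma and without any one of the 4 libraries. In HCl3 the change was -0.21 ± 0.11, with an adjusted P value of 0.150. HCl3 exceeded Ni-W by 0.38 ± 0.10 on the log2 scale (adjusted P = 0.00194), a 1.3-fold difference whose adjusted P value was above 0.05 in limma and without any of these libraries but Ni-W replicate 2. The 12 other expressed genes within the 10 Mb window of AHR had a median of 0.39 (log2 fold change, Ni-W against UT), opposite in sign to that of AHR, and relative to this median AHR stood at -0.97. In Ni-W against Ni-E, DESeq2 did not call AHR (-0.17, adjusted P = 0.251). Relative to the window median of 0.48 in that comparison, AHR was called lower (-0.65, adjusted P = 1.85e-07).

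Neither repressor was called in any comparison. AHRR (chromosome 5, 304291 to 438405, plus strand), which competes with AHR for ARNT, was at 4.55 and 4.16 RPKM in UT, 3.94 and 3.98 in Ni-E, then 3.69 and 4.03 in Ni-W, with 4.15 and 4.14 in HCl3. Its log2 fold change against UT was -0.19 (95% interval -0.49 to 0.10) in Ni-E, -0.21 (-0.49 to 0.07) in Ni-W and -0.13 (-0.39 to 0.13) in HCl3. With GC and length trends removed, it was lower in Ni-W (-0.57, adjusted P = 2.46e-05) and in HCl3 (-0.57, adjusted P = 2.28e-06), still under 1.5-fold. The start of AHRR shares 10799 bases with the end of its neighbour PDCD6 on the same strand, a gene at 83.0 to 103 RPKM. How reads from the shared stretch were assigned was not stated, so the AHRR values are uncertain. TIPARP (chromosome 3, 156394453 to 156424557, plus strand), an ADP-ribosyltransferase induced by AHR, was at 24.0 and 27.8 RPKM in UT, 27.1 and 22.7 in Ni-E, then 26.3 and 26.7 in Ni-W, with 24.5 and 23.2 in HCl3. Ni-E replicate 2 and HCl3 replicate 2 lay below both UT libraries and the other 4 libraries lay between them, while both Ni-W libraries lay above both HCl3 libraries (HCl3 against Ni-W -0.17, adjusted P = 0.141). For TIPARP, the intervals of its log2 fold change against UT were -0.37 to 0.15 in Ni-E, -0.22 to 0.22 in Ni-W and -0.38 to 0.04 in HCl3.

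CYP1B1 (chromosome 2, 38294746 to 38303323, minus strand), an extrahepatic P450 that activates aromatic hydrocarbons and hydroxylates oestradiol, was higher in Ni-W and HCl3 than in UT or Ni-E. Its level was 3.23 and 2.99 RPKM in UT, 2.25 and 2.85 in Ni-E, then 5.85 and 5.19 in Ni-W, with 6.63 and 6.47 in HCl3. All 4 Ni-W and HCl3 libraries lay above all 4 UT and Ni-E libraries. The rise over UT was 1.73-fold in Ni-W (log2 0.79 ± 0.15, adjusted P = 1.31e-06) and 2.02-fold in HCl3 (1.02 ± 0.13, adjusted P = 6.10e-13). Measured against Ni-E, CYP1B1 was 2.18-fold higher in Ni-W (adjusted P = 1.32e-11) and 2.55-fold higher in HCl3 (adjusted P = 2.95e-20). In ascending order the groups were Ni-E, UT, Ni-W and HCl3, with no overlap between the libraries of neighbouring groups. The differences of Ni-E from UT (-0.35, 95% interval -0.70 to 0.01, adjusted P = 0.234) and of HCl3 from Ni-W (0.23, 0.02 to 0.44, adjusted P = 0.146) missed the adjusted threshold. The 40 other expressed genes of its window had a median of -0.19 in Ni-W and -0.17 in HCl3, opposite in sign to the change of CYP1B1. With trends over GC content and length removed, the change in Ni-W was 0.53 (adjusted P = 0.000731), below 1.5-fold, and that in HCl3 was 0.83 and still called.

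CYP1A1 (chromosome 15, 75011883 to 75017877, minus strand), the most inducible AHR target, was expressed at a low level in all groups. It had read counts of 74 and 57 in UT, 60 and 37 in Ni-E, then 107 and 56 in Ni-W, with 45 and 54 in HCl3, or 0.67 and 0.74, 0.60 and 0.37, 0.80 and 0.62, and 0.42 and 0.48 RPKM. The Ni-E and HCl3 libraries lay below the UT libraries, and the Ni-W libraries lay on both sides of them. None of the changes passed the test by DESeq2: the log2 fold change was -0.60 (95% interval -1.49 to 0.30) in Ni-E, -0.03 (-0.79 to 0.74) in Ni-W and -0.70 (-1.51 to 0.11) in HCl3. In HCl3 the gene was called by edgeR (-0.69, adjusted P = 0.0373), with GC and length trends taken out (-0.998, adjusted P = 0.0293, but 0.169 with the replicate block added) and relative to its window (-1.17, adjusted P = 0.0231), whose 70 other genes had a median of 0.47.

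CYP1A2 (chromosome 15, 75041184 to 75048941, plus strand), the mainly hepatic relative that lies beside CYP1A1, had read counts of 0 and 6 in UT, 6 and 7 in Ni-E, then 19 and 15 in Ni-W, with 8 and 11 in HCl3. Reads were most frequent in Ni-W, where the 2 libraries together had 4.71 times the share of reads found in UT (exact 95% interval 1.95 to 13.7, counting error only). DESeq2 did not call it (adjusted P = 0.219 in Ni-W). Without UT replicate 2, which leaves a UT library at 0 reads, it was called in Ni-W at an adjusted P value of 0.0364, and no fold change can be given.

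ALDH1A3 (chromosome 15, 101420009 to 101456830, plus strand) was lower in Ni-E than in the other groups. Its level was 1.89 and 2.01 RPKM in UT, 0.99 and 0.75 in Ni-E, then 2.21 and 1.94 in Ni-W, with 1.59 and 1.73 in HCl3. The 2 Ni-E libraries lay below the other 6. Ni-E was 2.33-fold lower than UT (log2 -1.22 ± 0.27, adjusted P = 2.84e-04), whereas the log2 fold change against UT was 0.06 (95% interval -0.36 to 0.48) in Ni-W and -0.28 (-0.71 to 0.14) in HCl3. The difference from Ni-E itself was 1.26 ± 0.26 in Ni-W (adjusted P = 9.93e-06) and 0.92 ± 0.27 in HCl3 (adjusted P = 0.00273). The call in Ni-E was lost without UT replicate 1 (-1.27, adjusted P = 0.0541), without UT replicate 2 (-1.18, adjusted P = 0.103), without Ni-E replicate 2 (-1.02, adjusted P = 0.118) and in limma on log2 RPKM values (adjusted P = 0.0920 and 0.113). The call in HCl3 against Ni-E was lost without Ni-E replicate 2 (0.71), without HCl3 replicate 1 (0.99), without HCl3 replicate 2 (0.86), in limma on log2(RPKM + 1) (0.51), at a 2-fold threshold, with GC and length trends removed together with the replicate block (0.73, adjusted P = 0.101) and relative to the window (0.50, adjusted P = 0.145). The window holds 10 other expressed genes, with medians against UT of -0.20 (Ni-E), 0.49 (Ni-W) and 0.45 (HCl3), and relative to it ALDH1A3 was called lower in HCl3 than in UT (-0.73, adjusted P = 0.00459).

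ALDH3A2 (chromosome 17, 19552064 to 19580908, plus strand) was lower in HCl3, by less than 1.5-fold in the DESeq2 fit of the counts as deposited. Its level was 20.7 and 21.4 RPKM in UT, 22.1 and 23.5 in Ni-E, then 20.2 and 19.6 in Ni-W, with 16.7 and 16.5 in HCl3, and the HCl3 libraries lay below all others. The log2 fold change in HCl3 was -0.40 ± 0.10 against UT (adjusted P = 5.47e-04), -0.47 ± 0.09 against Ni-E (adjusted P = 1.75e-06) and -0.28 ± 0.08 against Ni-W (adjusted P = 0.0102). The 58 other expressed genes of its window had a median of -0.43 in HCl3 against UT, and relative to them ALDH3A2 stood at 0.035. With GC and length trends removed, it was past 1.5-fold and called in HCl3 against UT (-0.59, adjusted P = 9.35e-13) and against Ni-E (-0.67, adjusted P = 1.25e-12). In Ni-W the gene was at -0.12 (95% interval -0.33 to 0.09), beside a window median of -0.38.

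ALDH3A1 (chromosome 17, 19641298 to 19651746, minus strand), which lies in the same window as ALDH3A2, had read counts of 5 and 3 in UT, 4 and 5 in Ni-E, then 21 and 12 in Ni-W, with 13 and 20 in HCl3. The share of reads was 3.43 times that of UT in Ni-W (exact 95% interval 1.55 to 8.59) and 3.5 times in HCl3 (1.59 to 8.78), intervals that cover counting error only, and all 4 of these libraries lay above the 4 libraries of UT and Ni-E. DESeq2 did not call ALDH3A1 in Ni-W (log2 1.73 ± 1.08, adjusted P = 0.233) or in HCl3 (1.77 ± 1.06, adjusted P = 0.206). The edgeR test called it in Ni-W (adjusted P = 0.0320) and in HCl3 (adjusted P = 0.0321).

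Within the ALDH family, 19 genes listed in the files summed to between 229 and 268 RPKM per library. ALDH3A2 ranked the 5th in mean level and made up 7.06 to 9.04% of the sum, ALDH1A3 ranked the 12th with 0.287 to 0.929%, ALDH3A1 ranked the 14th and ALDH1A1 the last. The most abundant were ALDH18A1 (52.6 RPKM), a proline-synthesis enzyme, and ALDH9A1 (46.9 RPKM), which acts on aminoaldehydes. Of the 15 family members outside the 10 genes, 1 of 11 tested rose and 0 fell in Ni-E, 2 rose and 2 fell of 13 tested in Ni-W, and 1 rose and 2 fell of 13 in HCl3, beside 5.8, 15.7 and 14.8% of all genes called in either direction. The median log2 fold change of this list was 0.08, -0.02 and 0.01. ALDH1L2, a mitochondrial enzyme of folate metabolism, was at 1.52 and 1.43 RPKM in UT, 2.03 and 2.63 in Ni-E, then 0.52 and 0.53 in Ni-W, with 0.72 and 0.61 in HCl3. It rose in Ni-E (log2 0.60 ± 0.19) and fell in Ni-W (-1.53 ± 0.21) and HCl3 (-1.21 ± 0.20). ALDH1B1, a mitochondrial relative of ALDH2, fell in Ni-W (-1.19 ± 0.12, from 23.7 and 24.3 RPKM in UT to 10.4 and 11.2) and in HCl3 (-0.78 ± 0.10, 14.6 and 14.4 RPKM). The 71 other genes of its window had medians of -0.66 in Ni-W and -0.30 in HCl3, and relative to these ALDH1B1 stood at -0.53 and -0.48, both under 1.5-fold. Outside the rule for naming genes, the other called members were ALDH2 in Ni-W (0.93 ± 0.13) and the sparse ALDH1L1 in Ni-W and HCl3 (at most 0.27 RPKM).

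**Figure D3:**
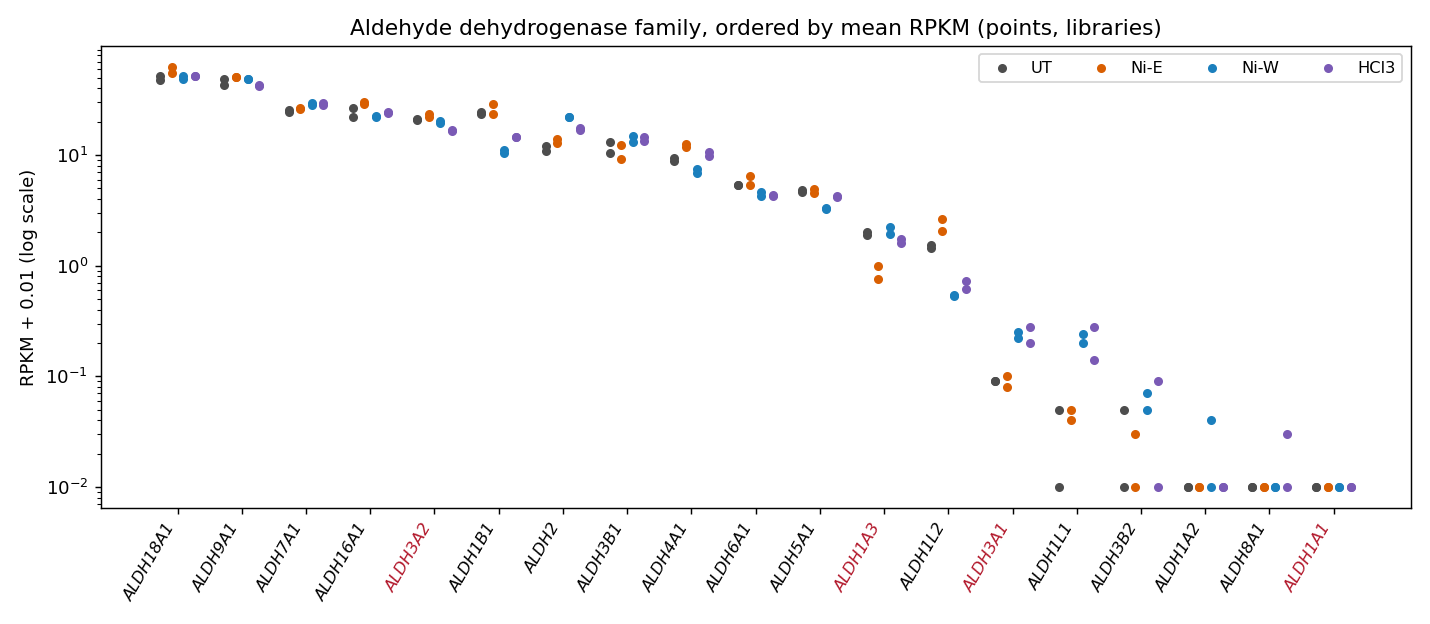
RPKM + 0.01 on a log axis for the 19 ALDH genes, ordered by mean level over the 8 libraries; each point is a library, colours are the 4 groups, and the ALDH genes among the 10 followed here have red names. Levels run from ALDH18A1 at 52.6 RPKM to ALDH1A1 at 0. The libraries of the 4 groups do not overlap for ALDH1L2, ALDH1B1 is lower in Ni-W and HCl3 than in UT and Ni-E, and ALDH1A3 is lowest in Ni-E.

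Among the 6 genes of the AHR complex, all tested, 1 fell in Ni-E, 1 rose in Ni-W and 1 rose in HCl3, and each time this was ARNT2, a relative of the AHR partner ARNT. Over all genes, 5.8, 15.7 and 14.8% were called in these comparisons, so the count is near the background in Ni-W and HCl3. ARNT2 was at 1.97 and 1.80 RPKM in UT, 0.90 and 1.3 in Ni-E, then 4.96 and 4.62 in Ni-W, with 4.24 and 4.27 in HCl3. Its log2 fold change against UT was -0.84 ± 0.22 in Ni-E (adjusted P = 0.00286), 1.31 ± 0.15 in Ni-W (adjusted P = 5.72e-17) and 1.12 ± 0.14 in HCl3 (adjusted P = 1.71e-13). The 44 other genes of its window had medians of 0.46 in Ni-W and 0.34 in HCl3, and relative to these ARNT2 stood at 0.85 and 0.78. ARNT itself was at 11.1 and 12.3 RPKM in UT, 10.6 and 11.7 in Ni-E, then 16.7 and 17.1 in Ni-W, with 11.9 and 11.3 in HCl3, and was not called against UT. The chaperone genes HSP90AA1, HSP90AB1 and PTGES3 were not called against UT. The median of the list was -0.21, -0.08 and -0.19, in the order Ni-E, Ni-W, HCl3.

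Of 11 further genes known to be inducible through AHR, 6 were tested. In Ni-E, DESeq2 called 0 of them, with 2 at an unadjusted P value under 0.05 and 1, NQO1, at an adjusted P value under 0.05. In Ni-W 3 rose and 1 fell, and in HCl3 2 rose and 0 fell, beside 15.7% of all genes called in Ni-W and 14.8% in HCl3. List medians were 0.17, 0.71 and 0.44. CYP2S1, a P450 of epithelia, was at 2.15 and 1.58 RPKM in UT, 2.41 and 2.53 in Ni-E, then 5.56 and 5.31 in Ni-W, with 4.37 and 4.22 in HCl3, and rose by 1.501 ± 0.21 in Ni-W and 1.14 ± 0.21 in HCl3 on the log2 scale. NQO1, a quinone reductase that is also a target of the oxidative-stress factor NFE2L2, was at 25.8 and 25.2 RPKM in UT, 39.5 and 36.1 in Ni-E, then 63.0 and 58.6 in Ni-W, with 46.6 and 47.8 in HCl3. Its rise was 1.22 ± 0.11 in Ni-W and 0.83 ± 0.10 in HCl3. In Ni-E it was higher by 0.51 ± 0.12 (adjusted P = 5.44e-04 by DESeq2), under 1.5-fold and so not called. The remaining calls in Ni-W, outside the naming rule, were ABCG2 (0.92 ± 0.37) and SERPINB2 (-0.95 ± 0.36). UGT1A1, UGT1A6 and GSTA2 were listed at 0 in all libraries.

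Of 7 enzymes of tryptophan breakdown, which yield AHR ligands, 3 were tested in Ni-E, likewise 3 in Ni-W, and 4 in HCl3. DESeq2 called 0 in Ni-E (beside 5.8% of all genes), with 2 at an unadjusted P value under 0.05. AFMID, outside the naming rule, also had an adjusted P value of 0.0316 there (log2 0.55), under 1.5-fold. In Ni-W and in HCl3, 1 gene rose (beside 10.9 and 11.1% of all genes), the sparse IL4I1, which the naming rule does not cover. IL4I1 was at 0.13 and 0.08 RPKM in UT, 0.15 and 0.60 in Ni-E, then 0.54 and 0.38 in Ni-W, with 0.64 and 0.57 in HCl3. List medians were 0.87, 0.60 and 0.68 over these few genes.

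Retinoid genes act upstream and downstream of the ALDH1A enzymes. Of 14 listed, DESeq2 called 0 of 10 tested in Ni-E, with 0 at an unadjusted P value under 0.05. In Ni-W 5 rose and 1 fell of 10 tested, and in HCl3 5 rose and 0 fell of 11 tested. Over all genes tested, 3.75% rose and 2.05% fell in Ni-E. In Ni-W 10.9% of all genes rose and 4.83% fell, and in HCl3 11.1% rose and 3.74% fell. The list medians were 0.0011, 0.64 and 0.63, in the order Ni-E, Ni-W, HCl3. DHRS3, a retinal reductase, was at 0.55 and 0.32 RPKM in UT, 0.35 and 1.03 in Ni-E, then 4.52 and 3.12 in Ni-W, with 2.83 and 3.29 in HCl3, a log2 fold change of 3.08 ± 0.36 in Ni-W and 2.74 ± 0.36 in HCl3. CRABP2, a carrier of retinoic acid, was at 0.34 and 0.42 RPKM in UT, 0.72 and 1.14 in Ni-E, then 2.18 and 1.68 in Ni-W, with 2.29 and 2.17 in HCl3, a change of 2.43 ± 0.53 and 2.62 ± 0.50. The other calls, outside the naming rule, were CYP26B1 and RARA upward in Ni-W and HCl3, RARG upward and RDH10 downward in Ni-W, and RXRA upward in HCl3. CRABP1 was listed at 0 in all libraries.

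**Figure D4:**
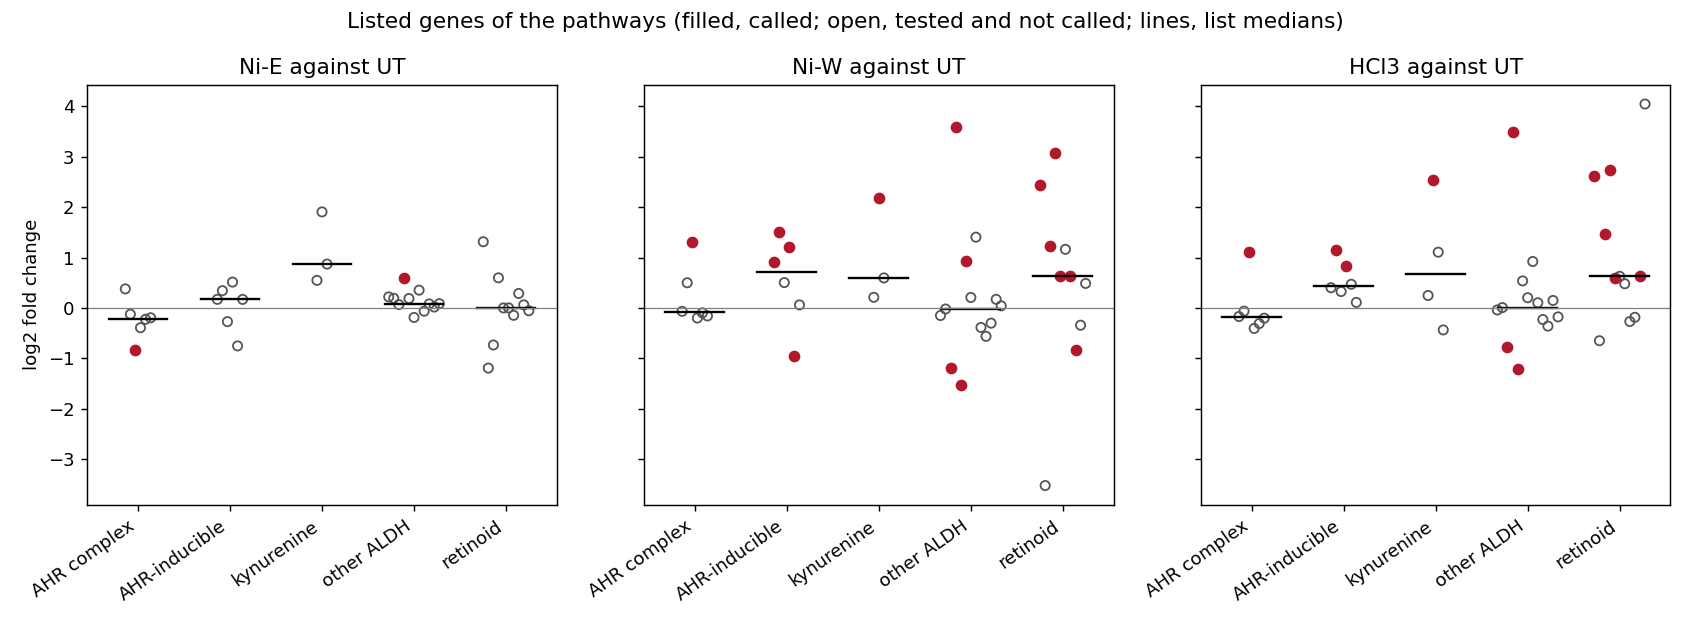
Log2 fold changes (vertical axis) of the tested genes of the 5 lists in Ni-E, Ni-W and HCl3 against UT; filled red points are called genes, open points are tested and not called, and lines are list medians. In Ni-E the red points are ARNT2 at -0.84 and ALDH1L2 at 0.60, and in Ni-W the list medians of AHR-inducible and retinoid genes are 0.71 and 0.64.

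Genes with the most similar pattern were sought for the 3 genes whose group means ranged most among the 7 followed genes with a mean normalised count of at least 50, by Pearson's r of log2 normalised counts over the 8 libraries among 12014 genes. These coefficients are descriptive, since the libraries fall into groups and the nearest genes were picked from many. For CYP1B1 they were CPZ (r = 0.998) and HVCN1 (r = 0.995). CPZ, a secreted carboxypeptidase gene, was at 3.76 and 3.08 RPKM in UT, 1.85 and 2.86 in Ni-E, then 9.48 and 8.68 in Ni-W, with 11.8 and 12.6 in HCl3. For ALDH1A3 they were RSRP1 (r = 0.985) and LYST (r = 0.970). RSRP1 was at 11.2 and 10.8 RPKM in UT, 5.39 and 4.73 in Ni-E, then 10.8 and 10.6 in Ni-W, with 9.28 and 9.36 in HCl3. For CYP1A1, which has few reads, they were KANSL2 (r = 0.948) and EDRF1 (r = 0.920).

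**Figure D5:**
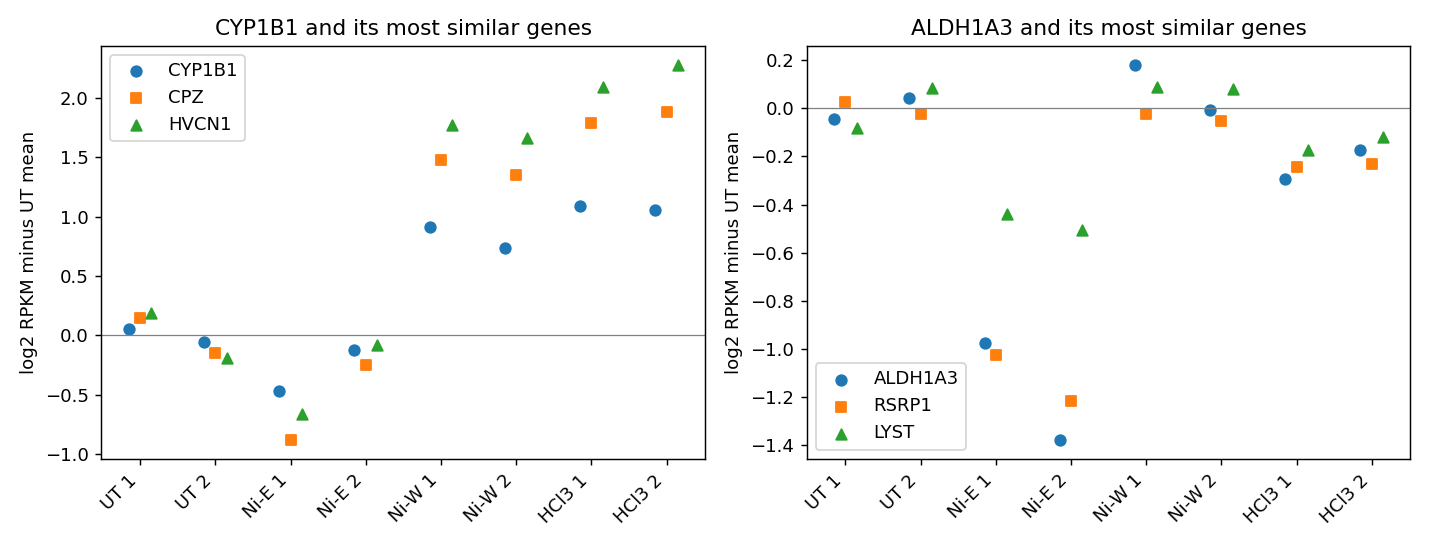
Log2 RPKM minus the UT mean (vertical axes) in each of the 8 libraries (horizontal axes) for CYP1B1 with CPZ and HVCN1, and for ALDH1A3 with RSRP1 and LYST; each point is a library. CYP1B1, CPZ and HVCN1 are higher in all Ni-W and HCl3 libraries than in UT and Ni-E, and ALDH1A3, RSRP1 and LYST are lowest in Ni-E.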

How the data were processed

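RNA-Seq had been performed by the authors on 2 biological replicates per group. Per the labels and the study's methods, reads were aligned to hg19 with STAR (version 2.4 in the submitters' processing notes) with multi-hits removed, and counted per RefSeq gene in BioWardrobe. The deposited counts are whole reads per gene, and the deposited RPKM values, also made by the authors, scale them to gene length and mapped reads. Whether counting used strand was not stated.

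Counts were fitted in R 4.3.3 with DESeq2 1.42.0 for each pair of groups (4 libraries per fit, two-sided Wald test with size factors by median of ratios, Benjamini-Hochberg adjustment over all genes tested, SE from the fit). Calls required an adjusted P value under 0.05 and at least 1.5-fold. With 2 libraries against 2, an exact permutation test of a gene cannot go below P = 0.333. Alternatives were edgeR 4.0.16 quasi-likelihood, limma 3.58.1 with log2(RPKM + 1) or log2(RPKM + 0.1) as values, TMM factors, all 8 libraries in a fit, a mean count of at least 10, no independent filtering, 2-fold or no fold threshold, the replicate suffix as a block, removal of GC and length trends (values for 8 of the 10 genes and 89.5% of expressed genes) without and with the block, subtraction of the median of each 10 Mb window, and each library left out. The crossed block was added after seeing the data. Scripts were tested on simulated data, and Python 3.11.15 with matplotlib 3.10.9 drew the figures.

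The 10 genes, the 5 pathway lists and the 2 marker lists were chosen with earlier results of these data known. Besides the 10 genes, the text names per list the 2 called genes with the largest absolute log2 fold change, if their mean normalised count was at least 50, the 2 genes most similar in pattern to each of 3 of the 10, and genes overlapping any of the 10. Intervals for sparse genes and the floor of 3 reads cover counting error only, since reads carried no molecular identifiers. The chromatin experiments and the RT4 cells were not used here. Some listed genes are not reported here by name.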

Additional observations from a re-analysis of the deposited data

Results flagged for a closer look

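The Ni-W and HCl3 groups, which carried the same treatment text, differed in AHR and ALDH3A2 by the DESeq2 test of the difference itself. AHR was higher in HCl3 by 0.38 on the log2 scale (adjusted P = 0.00194), with both HCl3 libraries above both Ni-W libraries. ALDH3A2 had a log2 difference of -0.28 (adjusted P = 0.0102), with both HCl3 libraries below both Ni-W libraries. Each difference was under 1.5-fold. With no fold threshold, 2 of the 9 genes passed an adjusted P value under 0.05, beside 2476 of the 14956 genes tested. With the replicate block, the DESeq2 adjusted P value was 0.0589 for AHR and 0.150 for ALDH3A2. The cause of the differences was not tested.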

How the results depend on the processing

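Of 937 log2 fold changes of the tested genes under the alternatives, 851 kept their direction and their side of the threshold, 15 lost and 29 gained a call, and 42 changed sign, none of them called before or after. CYP1B1 in HCl3 against UT was called under every alternative run. The causes of the changes were not tested. Where a replicate was left out, the lone library was assumed to vary like the other group.

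The number of the 9 genes called in Ni-E against UT (1) was 0 in limma with either pseudocount (2 at an unadjusted P value under 0.05 in each, 1 called by edgeR), 2 with no fold threshold, and 0 to 1 without a replicate. In Ni-W against UT (1) it was 2 in edgeR, 2 in limma on log2(RPKM + 0.1), 0 at 2-fold, 2 with no fold threshold, 2 relative to the window and 1 to 2 without a replicate. Without GC and length trends, with or without the block, the count in Ni-W against UT stayed at 1, with AHR gained and CYP1B1 lost. In HCl3 against UT (1) it was 3 in edgeR, 2 in limma on log2(RPKM + 0.1), 2 with no fold threshold, 3 without GC and length trends, 2 with this and the replicate block, and 3 relative to the window. In Ni-W against Ni-E (2) it was 3 in edgeR and in limma on log2(RPKM + 0.1), where ALDH3A1 was gained, and AHR was gained relative to the window. In HCl3 against Ni-E (2) it was 3 in edgeR and in limma on log2(RPKM + 0.1), where ALDH3A1 was gained, 3 with no fold threshold and 3 without GC and length trends, where ALDH3A2 was gained, 1 in limma on log2(RPKM + 1), 1 at 2-fold, 1 relative to the window and 1 to 2 without a replicate. With the trends removed and the block together it stayed at 2, with ALDH3A2 gained and ALDH1A3 lost. In HCl3 against Ni-W (0) it was 2 with no fold threshold. Over all genes, edgeR, limma on log2(RPKM + 0.1) and the window setting called 2782, 2324 and 1978 in Ni-W against UT. They called 2757, 2276 and 1981 in HCl3 against UT, and 3675, 3169 and 2664 in Ni-W against Ni-E. In HCl3 against Ni-E they called 3222, 2793 and 2320. Without GC and length trends the calls were 2975 in Ni-W against UT, 2728 in HCl3 against UT and 2862 in HCl3 against Ni-E. With the block added they were 2530, 2241 and 2416.

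Sign changes in Ni-E against UT were those of ALDH3A1 in limma (-6.185e-05 and -0.00223), without GC and length trends (-0.20, and -0.21 with the block) and relative to the window (-0.018). In Ni-W against UT, CYP1A1 changed sign in limma (0.0025 and 0.0013), TIPARP with all 8 libraries fitted (-0.0012) and without GC and length trends (-0.21, also with the block), and ALDH1A3 without the trends (-0.20, also with the block) and relative to the window (-0.43). Relative to the window, ALDH3A2 stood at 0.27 in Ni-W and 0.035 in HCl3 against UT and at 0.27 in Ni-W against Ni-E, TIPARP at 0.092 in HCl3 against UT and 0.13 against Ni-E, and AHR at -0.17 in HCl3 against Ni-E. Without the trends, TIPARP was at -0.16 in Ni-W against Ni-E (-0.16 with the block), AHRR at -0.30 in HCl3 against Ni-E (-0.30 with the block), and AHRR at -0.016 and ALDH3A1 at -0.11 in HCl3 against Ni-W (-0.016 and -0.13 with the block).

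Without a replicate, values that crossed 0 ranged in Ni-E against UT from -0.33 to 5.22 for CYP1A2 (the latter against a UT library at 0 reads, so it is no fold), from -0.13 to 0.18 for ALDH3A1 and from -0.26 to 0.028 for TIPARP. In Ni-W against UT they ranged from -0.22 to 0.14 for CYP1A1, from -0.11 to 0.11 for TIPARP and from -0.032 to 0.14 for ALDH1A3. In Ni-W against Ni-E they ranged from -0.055 to 0.24 for TIPARP and from -0.097 to 0.035 for AHRR, in HCl3 against Ni-E from -0.44 to 0.28 for CYP1A1 and from -0.22 to 0.072 for TIPARP, and in HCl3 against Ni-W from -0.27 to 0.29 for ALDH3A1.

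Over all genes, the 840 calls in Ni-E against UT became 0 in limma with either pseudocount (3988 and 3958 at an unadjusted P value under 0.05), 418 at 2-fold, 1679 with no fold threshold, 491 with the replicate block, 400 with the block and no trends, and 356 to 620 without a replicate. The 2484 in Ni-W against UT became 1409 in limma on log2(RPKM + 1), 1368 at 2-fold, 4917 with no fold threshold and 1516 to 2190 without a replicate. The 2333 in HCl3 against UT became 1305, 1308, 4945 and 1339 to 2109 in the same order, the 2734 in HCl3 against Ni-E 1655, 1374, 5994 and 1757 to 2742, and the 3276 in Ni-W against Ni-E 1989, 1619 and 6274. The 713 in HCl3 against Ni-W became 247 and 267 in limma, 369 at 2-fold, 2476 with no fold threshold, 455 with the block, 433 with the block and no trends, and 327 to 530 without a replicate.

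The replicates share only a suffix. Across genes, same-suffix libraries deviated together with an r of -0.24 in Ni-E and UT, 0.40 in Ni-W and UT, -0.19 in HCl3 and UT, -0.09 in Ni-W and Ni-E, 0.05 in HCl3 and Ni-E, and -0.10 in HCl3 and Ni-W. With the replicate block, the number of the 9 genes called was 1, 1, 1, 2, 2 and 0 in that order, as without it. The crossed pairing, chosen after seeing the data, called 632, 1880 and 557 genes in Ni-E against UT, HCl3 against UT and HCl3 against Ni-W. The block took AHR in Ni-E against UT to an adjusted P value of 0.114 and, in HCl3 against Ni-W, ALDH3A2 to 0.150 and AHR to 0.0589. The values of CYP1A2 and ALDH3A1 rest on at most 19 and 21 reads in a library.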
